A study of Arabidopsis thaliana with 24 samples.

Results

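The effect of L-kynurenine was followed in Arabidopsis thaliana roots that were also given brassinolide, by setting roots on both compounds against roots on brassinolide alone. L-kynurenine (Kyn) is a competitive inhibitor of TAA1 and its relatives, the aminotransferases that start the main route of auxin synthesis from tryptophan. Brassinolide (BL) is the most active brassinosteroid, a plant steroid hormone. The 12 libraries used were chosen by treatment label alone, 6 from BL+Kyn roots and 6 from BL roots, of 24 libraries in the series. All seedlings were Col-0 wild type, grown for 3 days before transfer, and no line carried a transgene or mutation according to the labels. BL+Kyn seedlings were on 0.8 nM BL and 4 µM Kyn, BL seedlings on 0.8 nM BL, Kyn seedlings on 4 µM Kyn and mock seedlings on neither. Roots were taken after 12, 24 and 48 h, with 2 libraries for each treatment and time, which the series calls biological replicates. The labels place the cut a short way from the root tip, so each library mixes the tip with older root tissue. Kyn was set against mock, with no library shared, only to ask whether its effect differed without BL.

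Auxin acts by promoting the breakdown of Aux/IAA repressors, and many Aux/IAA and GH3 genes are themselves switched on within minutes to hours of an auxin rise, so their transcripts serve as a readout of auxin response. In the root, auxin made near the tip maintains the stem cell niche with the PLETHORA factors and drives root hair growth through the bHLH factors RSL4 and RSL2 and their wall-protein targets. Brassinosteroids are perceived by BRI1 and BAK1, relieve the brake of the kinase BIN2, and repress the genes of their own synthesis.

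Upstream sequences are given from an auxin response list and a root hair list, since a known element has been described for each and some of their genes hold it. IAA19, an Aux/IAA gene, held 3 copies of TGTCTC, the classic auxin response element, in the 300 bases before its RefSeq gene start. They stand in capitals below, on the plus strand of chromosome 3 (TAIR10.1, chr3:5263701-5264000), and begin 184, 145 and 128 bases before that start.
IAA19: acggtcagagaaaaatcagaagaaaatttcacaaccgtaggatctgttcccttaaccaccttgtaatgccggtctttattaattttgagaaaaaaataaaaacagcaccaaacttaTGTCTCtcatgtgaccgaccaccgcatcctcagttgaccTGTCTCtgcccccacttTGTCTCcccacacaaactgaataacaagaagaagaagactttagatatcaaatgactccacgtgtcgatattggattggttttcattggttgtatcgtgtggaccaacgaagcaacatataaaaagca
TGTCTC on either strand was found in 7 of 24 tested Aux/IAA genes (29.2%) and in 12.8% of the 18472 tested genes with such a window. A second auxin element, TGTCGG, was found in 5 of the 24 (20.8%) and in 5.44% of tested genes. The G-box CACGTG was found in 4 (16.7%) and 7.98%. For TGTCTC the share was 10.9% among the genes called higher in BL+Kyn and 15.2% among those called lower. A match is a description of letters, not evidence of a binding site.

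The root hair element (RHE) is a degenerate motif bound by RSL4 and first described in EXPA7 and EXPA18, so its presence in those genes is not independent of the name. On either strand it was found in 7 of the 15 root hair growth and wall genes listed here (46.7%), against 0.947% of all tested genes, 1.84% of the genes called lower and 0.524% of the genes called higher. Both the list and the element were chosen with results of these data known, so this contrast is a description and not a test. The 7 genes make or modify the hair wall or are known from root hair expression: the expansins EXPA7 and EXPA18, the proline-rich proteins PRP1 and PRP3, the leucine-rich repeat extensins LRX1 and LRX2, and MRH6. Each match is shown in capitals in the direction of the element, with 10 bases on either side (TAIR10.1).
EXPA7 (chr1:4276417-4276453, plus strand): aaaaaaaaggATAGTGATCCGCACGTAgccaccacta
EXPA18 (chr1:23331513-23331548, plus strand): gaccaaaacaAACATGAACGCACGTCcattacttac
PRP1 (chr1:20504762-20504798, minus strand): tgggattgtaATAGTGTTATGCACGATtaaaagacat
PRP3 (chr3:23182545-23182581, minus strand): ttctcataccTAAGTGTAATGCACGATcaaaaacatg
LRX1 (chr1:4069889-4069924, minus strand): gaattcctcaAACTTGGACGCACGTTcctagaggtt
LRX2 (chr1:23112666-23112702, minus strand): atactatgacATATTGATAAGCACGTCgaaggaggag
MRH6 (chr2:1132037-1132073, plus strand): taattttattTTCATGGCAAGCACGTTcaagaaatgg
In EXPA18 the element lay closest to the gene start, its outer end 40 bases before it, and in LRX2 farthest, at 257 bases.

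Reads recovered from the normalized values numbered 8568834 to 21058895 in the BL+Kyn libraries and 6322167 to 22340587 in the BL libraries, and values below are normalized counts per library as deposited. In BL at 12 h, replicate 2 stood apart in 15 green tissue genes (RBCS, LHC and RCA), whose summed normalized count was 101520 there, against 2985 to 7194 in the 6 BL+Kyn libraries and 2751 to 5228 in the other 5 BL libraries. None of the 15 was called in BL+Kyn against BL averaged over the 3 times, in a fit that held that library. With only 24 and 48 h in the fit, 2 of the 15 were called higher and none lower. At 48 h the median of the 15 lay 0.82 and 0.65 above the BL mean in the BL+Kyn replicates. The part of green tissue in the results at 48 h was not tested. The BL+Kyn replicates at 48 h differed more from each other than any other pair did. Over 10374 genes with a mean of at least 100, the SD of their log2 difference was 0.559, against 0.25 to 0.459 in the other 11 groups. Several counts are also given without these libraries. In whole roots, fewer cells of a type and less RNA per cell cannot be told apart.

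Averaged over the 3 times, 5247 of 18948 tested genes (27.7%) differed between BL+Kyn and BL at an adjusted p under 0.05, here said to be called. Of these, 2711 (14.3%) were higher in BL+Kyn and 2536 (13.4%) were lower. The median over all tested genes was 0.00 on the log2 scale. Rises and falls differed in their extremes, since 215 of the lower genes changed by more than 4-fold, against 73 of the higher genes, while the median size of a called change was 0.48 for lower and 0.53 for higher genes. Without BL 12 h replicate 2 the count was 4061, of which 2067 were higher and 1994 lower.

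Ranks here are among called genes with a symbol, a mean of at least 20 and the same sign at all 3 times. Among these, the largest rise and the largest fall were those of cytochrome P450 genes. Genes of root hair walls were among the 10 largest falls. CYP706A2, a cytochrome P450 (chromosome 4, 11934969 to 11936755, TAIR10), had 154 and 59.0 normalized counts in BL+Kyn at 12 h, 345 and 609 at 24 h and 281 and 566 at 48 h. In the 6 BL libraries it had 4.33 to 46.9, with a median of 7.86. Every BL+Kyn library lay above every BL library, and the fitted difference was 4.40 on the log2 scale (SE 0.41, adjusted p = 3.54e-07). Its tandem relative CYP706A1 had a log2 difference of 3.6 (adjusted p = 7.03e-06), and reads of such near copies may not be fully separable. CYP78A5, known as KLUH, a P450 that promotes organ growth, had 264 and 244 in BL+Kyn at 12 h, 316 and 289 at 24 h and 229 and 86.0 at 48 h, against 11.3 to 21.6 in BL. It rose by 3.87 (SE 0.21, adjusted p = 3.04e-10). Further rises over 4-fold were the sucrose exporters SWEET11 (2.91) and SWEET12 (2.64), the flavin monooxygenase FMO1 of systemic immunity (2.91), the peroxidase PA2 (2.88), the high-affinity nitrate transporter NRT2:1 (2.64), the chitinase HCHIB (2.61) and LRP1 (2.25), a gene of lateral root primordia. SWEET11 differed widely between the 48 h replicates, with 2494 and 122 in BL+Kyn against 43.1 and 15.1 in BL.

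CYP94D1, another cytochrome P450, fell furthest among the ranked genes. It had no read in either BL+Kyn library at 12 h, 1.69 and 0 at 24 h and 2.16 and 1.39 at 48 h, against 87.8 and 42.8, 44.9 and 80.0, and 53.3 and 9.42 in BL. At 12 h it was thus at least 48.6-fold lower, with the BL+Kyn group set to a floor of 3 reads over its 2 libraries. The ERF-type factor gene ESE2 (-4.13), the ovate family gene OFP11 (-3.76) and the kinase gene AGC1.7 (-3.69) were also among the 10 largest falls. So were XTH26 (-4.17), XTH13 (-3.98), FLA6 (-3.94), EXT6 (-3.85), RHS14 (-3.75) and EXT11 (-3.63), which encode xyloglucan enzymes, an arabinogalactan protein, extensins and a root hair specific protein. Extensins have near-identical repeats, so the values of EXT6 and EXT11 may hold reads of relatives.

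**Figure D1:**
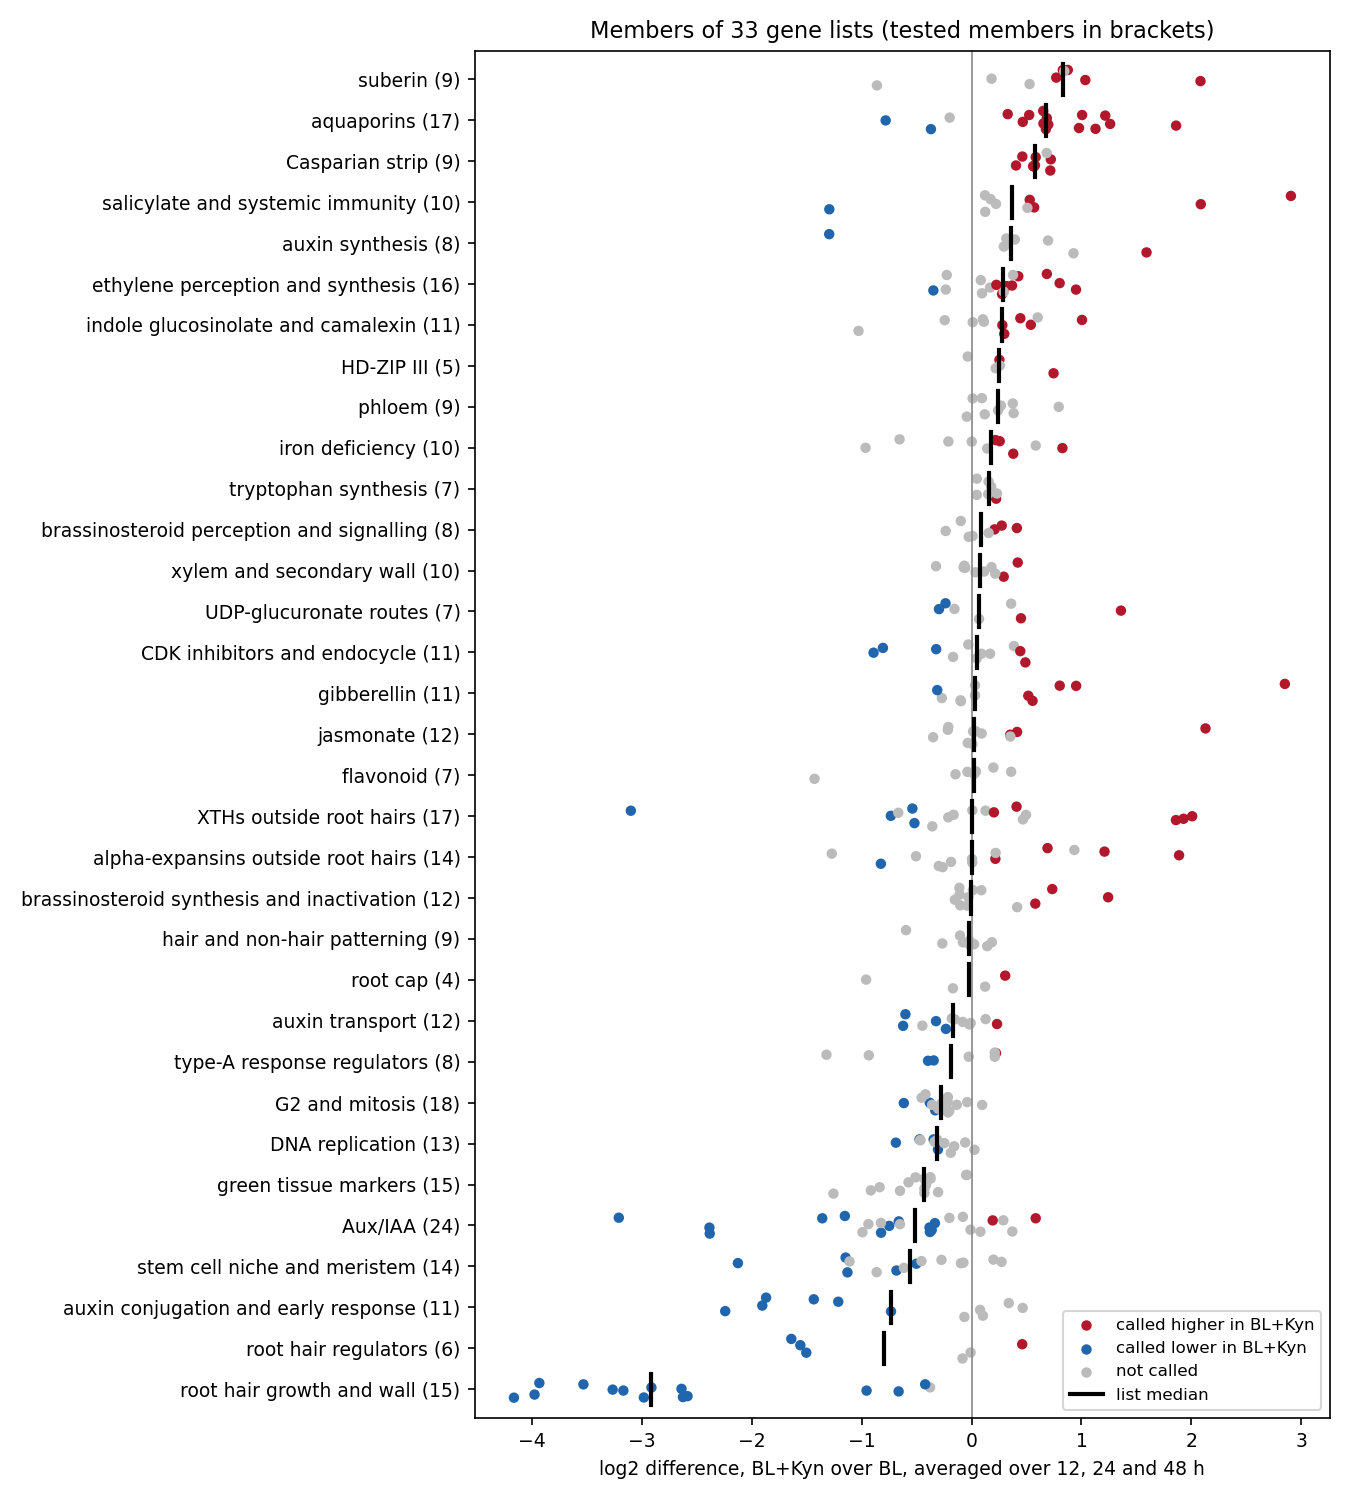
Each point is a tested gene of a list, placed by its log2 difference between BL+Kyn and BL averaged over 12, 24 and 48 h, with red for called higher, blue for called lower and grey for not called, and black bars for list medians. The root hair growth and wall list lies farthest to the left, with a median of -2.92, and suberin, aquaporin and Casparian strip lists lie farthest to the right, with medians of 0.83, 0.68 and 0.58.

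Auxin response genes fell under Kyn in BL-treated roots, while the 2 genes of auxin synthesis that were called went opposite ways. TAA1, the enzyme that Kyn blocks (chromosome 1, 26604855 to 26607503), had 48.9 and 53.8 normalized counts in BL+Kyn at 12 h, 33.1 and 39.7 at 24 h and 17.3 and 16.6 at 48 h, against 91.1 and 81.9, 68.7 and 88.7, and 74.8 and 73.5 in BL. All BL+Kyn values lay below all BL values, and TAA1 was 2.46-fold lower in BL+Kyn (SE of log2 0.15, adjusted p = 6.54e-06). YUC8, a flavin monooxygenase that acts after TAA1 (chromosome 4, 14192583 to 14194256), had 453 and 449.9, 459.5 and 422, and 444 and 363 in BL+Kyn at the 3 times. In BL it had 143 and 145, 170.4 and 156, and 112 and 134. The groups did not overlap, and YUC8 rose 3.01-fold (log2 1.59, SE 0.10, adjusted p = 1.27e-09). The other 6 tested synthesis genes, TAR2 and 5 further YUCCA genes, had log2 values of 0.29 to 0.93 and were not called.

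Of 24 tested Aux/IAA genes, 12 fell and 2 rose, with a median of -0.52. Falls were led by IAA31 (-3.21), a divergent member, and by the early-response members IAA1 and IAA19. IAA19 (chromosome 3, 5264024 to 5265678), whose upstream window is printed above, had 15.2 and 10.2 in BL+Kyn at 12 h, 7.30 and 11.3 at 24 h and 20.5 and 19.4 at 48 h. In BL it had 62.2 to 86.2, with a median of 73.7. It was 5.22-fold lower in BL+Kyn (log2 -2.38, SE 0.18, adjusted p = 1.14e-08) with no overlap. IAA1 fell by 2.39 (SE 0.22, adjusted p = 2.66e-07), with 8.99 to 37.4 in BL+Kyn against 67.1 to 110.0 in BL. IAA11 (-1.36), IAA30 (-1.15), IAA3 (-0.82), IAA2 (-0.75) and IAA4 (-0.66) fell less, and IAA12, IAA16, IAA9 and IAA13 fell by 0.33 to 0.38. The rises were those of IAA28 (0.58), which represses lateral root formation, and IAA17 (0.19). The number of Aux/IAA genes called lower was 9 at 12 h, 7 at 24 h and 4 at 48 h. The list medians at these times were -0.87, -0.50 and -0.10. Over all tested genes, the shares called lower at these times were 1.76%, 2.84% and 8.55%. No Aux/IAA gene was called for a change with time. With only 24 and 48 h in the fit, 7 fell. Without BL 12 h replicate 2, 10 were called lower and 1 higher.

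Among 11 other early auxin genes, 6 fell and none rose, with a median of -0.73. GH3 enzymes join auxin to amino acids, and GH3.5 (-1.87), GH3.3 (-1.91), GH3.1 (-1.44) and GH3.6 (-1.21) fell, as did GATA23, which marks lateral root founder cells (-2.24), and the homeobox gene HAT2 (-0.73). GH3.5 had 40.0 and 35.9, 27.0 and 31.2, and 43.2 and 30.5 in BL+Kyn, against 153 and 161, 148 and 126, and 101 and 92.4 in BL. GH3.3 overlapped, with 34.5 and 5.55 in BL+Kyn at 48 h against 40.6 and 26.4 in BL, and its call was lost when 12 h was left out (adjusted p = 0.0813). GH3.17 (-0.07), LBD16 (0.08), LBD18 (0.10), DAO1 (0.34) and GH3.2 (0.46) were not called.

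Of 12 tested auxin carriers and their regulators, 4 fell and 1 rose. The influx carriers LAX2 (-0.62) and LAX3 (-0.23), the efflux carrier PIN3 (-0.60) and the ABC transporter ABCB19 (-0.32) fell, and ABCB1 rose by 0.23. PIN3 had 271 to 343 normalized counts in BL+Kyn against 403 to 508 in BL, without overlap. The call of ABCB1 ended under 3 of 12 omissions of a library (adjusted p up to 0.0621). In the tryptophan pathway, which makes the substrate of TAA1, only IGPS of 7 genes was called (0.22), and its call ended under 8 of these omissions (adjusted p up to 0.105). In the branch from tryptophan to indole glucosinolates and camalexin 5 of 11 genes rose and none fell. These were the regulator MYB51 (1.00) and the enzymes CYP83B1 (0.54), SOT16 (0.44), UGT74B1 (0.30) and CYP79B2 (0.28). The lowest value among the 11 was -1.03, which was not called, and edgeR and DESeq2 each called 1 member lower. CYP83B1, which acts on the aldoxime that CYP79B2 makes, had 1218 to 1925 in BL+Kyn against 835 to 1219.6 in BL.

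**Figure D2:**
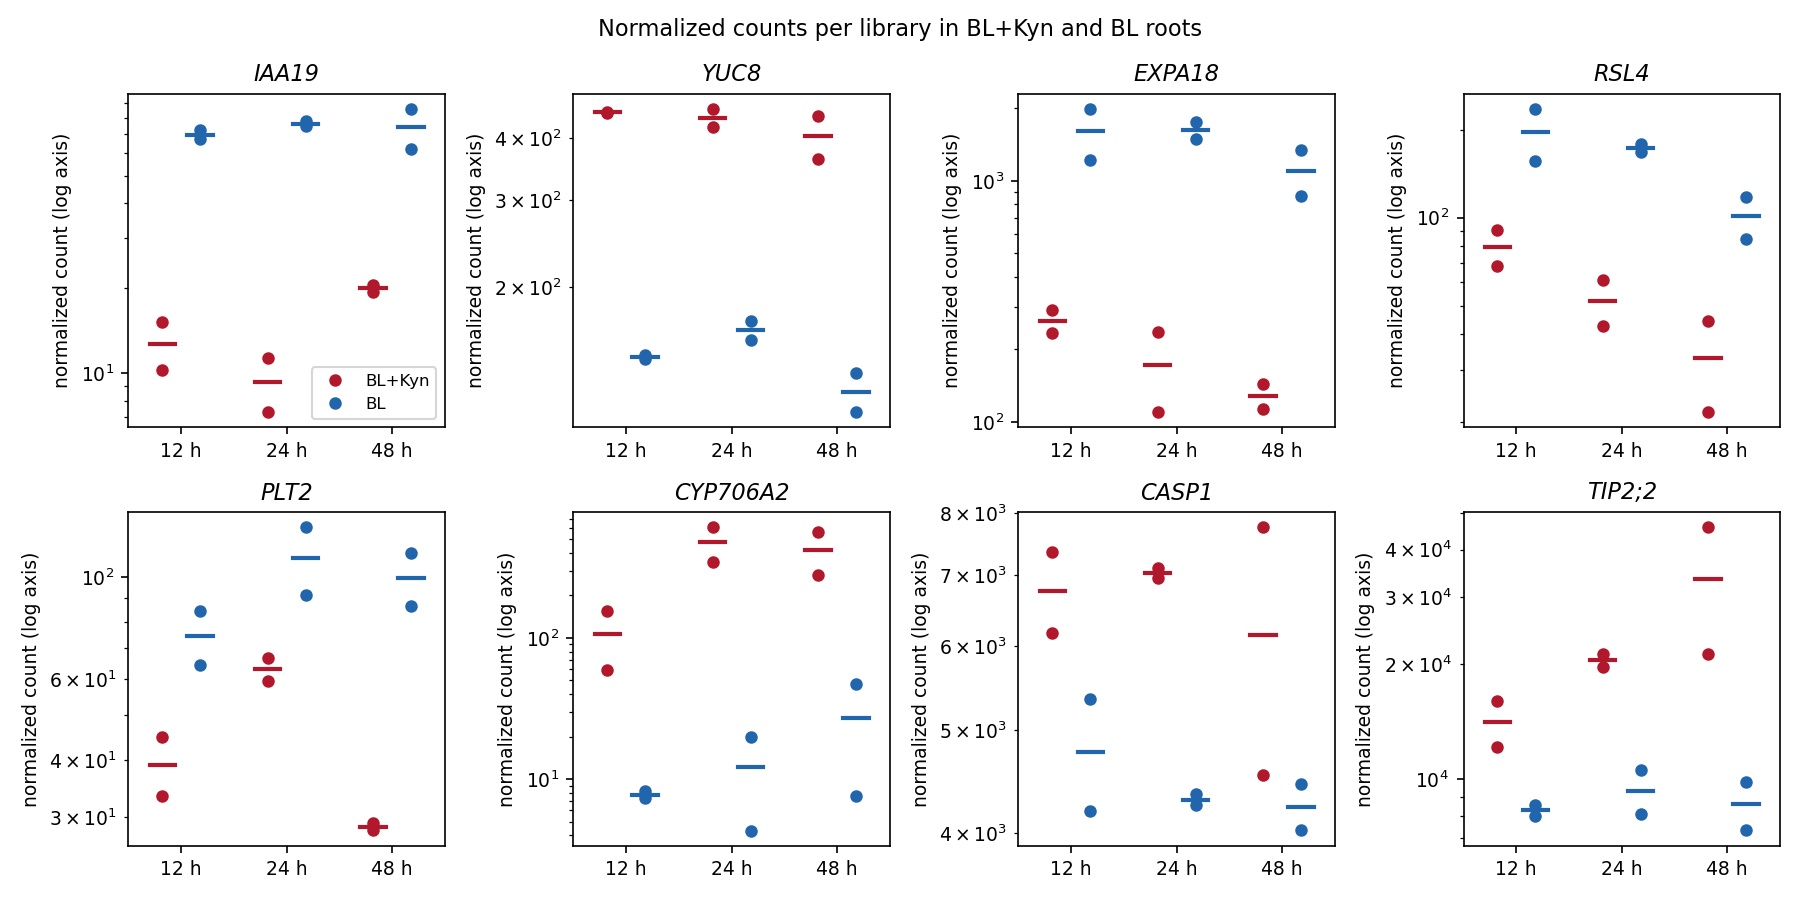
Normalized counts (log axis) of 8 genes in each library at 12, 24 and 48 h, with BL+Kyn in red to the left of BL in blue, and a bar at the mean of the 2 replicates. IAA19, EXPA18 and PLT2 lie lower in BL+Kyn at each time, YUC8, CYP706A2 and TIP2;2 lie higher, and CASP1 replicates of BL+Kyn at 48 h stand far apart, at 7761 and 4535.

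Root hair growth and wall genes had the lowest median of the 33 lists. Of 15 members, all of them tested, 14 fell and none rose, with a median of -2.92. Their medians in the single BL+Kyn libraries lay 2.25 to 3.75 below the BL mean of the same time, and 14 were called lower whichever of the 12 libraries was left out. The xyloglucan enzymes XTH26, XTH13 and XTH14 (-3.27), the proline-rich proteins PRP1 (-3.53) and PRP3 (-3.17) and the expansins EXPA18 (-2.98) and EXPA7 (-2.59) remodel the hair wall. PRP3 (chromosome 3, 23182722 to 23183994) had 4652 and 6065 in BL+Kyn at 12 h, 2052 and 4004 at 24 h and 1914 and 3197 at 48 h, against 40217 and 26813, 28854 and 35515, and 32587 and 21034 in BL. EXPA18 (chromosome 1, 23331676 to 23333110) had 234 and 292, 110.1 and 235, and 113 and 144 in BL+Kyn, against 1992 and 1222, 1486 and 1751, and 1341 and 865 in BL. Neither gene overlapped between treatments. MRH6 (-2.92), the extensin-like LRX1 (-2.64) and the phosphatidylinositol transfer protein COW1 (-2.63), needed for tip growth, fell too. LRX2 (-0.96), the NADPH oxidase RHD2 (-0.66) and the cellulose synthase-like CSLD3 (-0.42) fell least, and the lipid kinase PIP5K3 (-0.38) was not called. Of the 7 genes with a root hair element, 6 had log2 values of -3.53 to -2.59, and LRX2 had -0.96. The list members without a match ranged more widely. They held the strongest falls, XTH26 (-4.17), XTH13 (-3.98) and FLA6 (-3.94), and the smallest changes, CSLD3 (-0.42) and PIP5K3 (-0.38).

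The bHLH regulators of root hairs were split. RSL4, which sets hair length (chromosome 1, 9654688 to 9656089), had 68.2 and 91.0 in BL+Kyn at 12 h, 42.7 and 60.9 at 24 h and 21.6 and 44.4 at 48 h. In BL it had 236 and 156, 168 and 179, and 118 and 84.8, so that values overlapped across but not within times. It fell by 1.56 (SE 0.19, adjusted p = 9.63e-06). LRL3, a factor that acts with the RSL genes, fell by 1.64 and RSL2 by 1.51. For RSL2 the replicates were 153 and 133 at 12 h, 118 and 140.3 at 24 h and 21.6 and 55.5 at 48 h in BL+Kyn, against 285 and 161, 196 and 269, and 319.6 and 292 in BL. LRL1 rose by 0.46, with 456 to 688 in BL+Kyn against 345 to 405 in BL. RHD6 (-0.01), which starts hair formation upstream of RSL4, and LRL2 (-0.08) were not called. Nor was any of 9 genes that pattern hair and non-hair cells, WER, GL2 and CPC among them, with a median of -0.02.

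**Figure D3:**
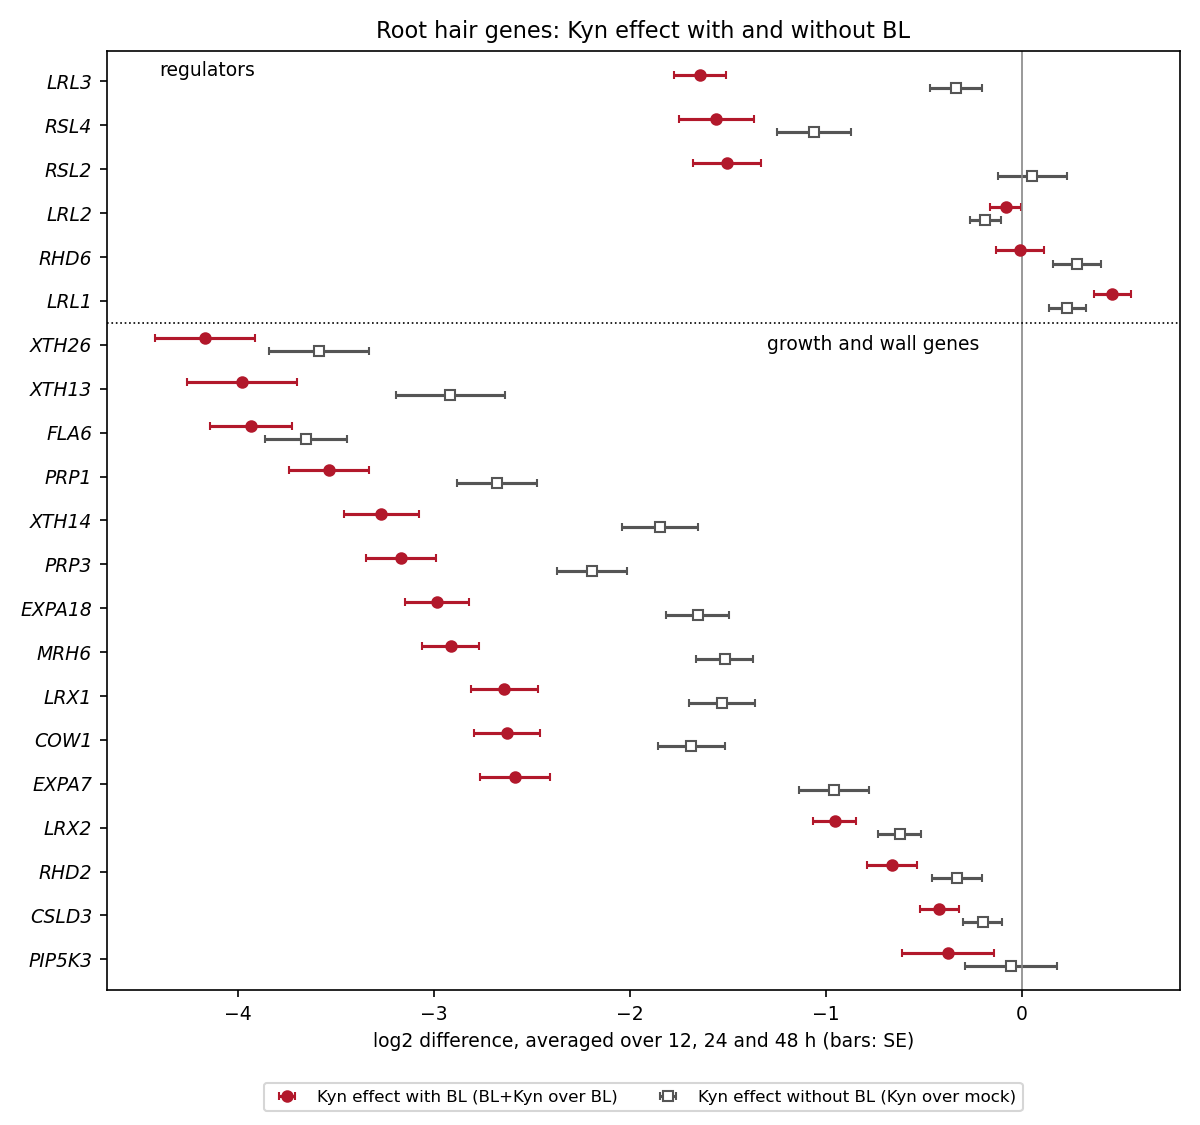
For each tested root hair gene, the red circle is the log2 difference between BL+Kyn and BL and the open square that between Kyn and mock, averaged over time, with bars of 1 SE. XTH26 is at -4.17 with BL and -3.59 without, RSL2 at -1.51 and 0.05, and RHD6 and LRL2 lie near 0 in both.

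Among genes of the stem cell niche and the dividing zone, those called were lower in BL+Kyn, and most were not called. Of 14 tested niche genes 5 fell and none rose, with a median of -0.56. PLT2, an AP2 factor that maintains the meristem (chromosome 1, 18977284 to 18980618), had 44.8 and 33.3 in BL+Kyn at 12 h, 66.8 and 59.5 at 24 h and 28.1 and 29.1 at 48 h, against 64.4 and 84.3, 91.4 and 129, and 113 and 86.7 in BL. Within each time BL+Kyn lay below BL, and PLT2 fell by 1.15 (SE 0.15, adjusted p = 2.45e-05). PLT1 fell by 0.68 (SE 0.18, adjusted p = 0.00783), with 32.4 and 83.2 in the 48 h BL+Kyn replicates against 95.1 and 121 in BL. The peptide genes RGF2 (-2.13) and RGF3 (-1.13), whose products keep PLETHORA protein levels up, and the ground tissue factor MGP (-0.50) fell as well. WOX5, the quiescent centre marker, had 13.8 and 3.85, 9.55 and 19.8, and 9.72 and 49.9 in BL+Kyn against 29.4 and 44.0, 30.8 and 27.5, and 26.6 and 24.5 in BL. It lay lower in 5 of 6 libraries and was not called (log2 -1.11, SE 0.46, adjusted p = 0.0818). SHR (-0.10) and SCR (-0.08), which specify ground tissue, were not called.

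Of 18 G2 and mitosis genes 3 fell and none rose, a share near that of all tested genes, with a median of -0.28. They were the cyclin CYCB1;1 (-0.62), the cytokinesis syntaxin KNOLLE (-0.38) and the kinase AUR2 (-0.33). CYCB1;1 had 25.6 to 54.4 in BL+Kyn against 51.3 to 77.4 in BL, and without any of 4 libraries it was not called (adjusted p up to 0.074). The number called lower was 5 without BL 12 h replicate 1, 7 without BL+Kyn 48 h replicate 2 and 1 with only 24 and 48 h. Of 13 DNA replication genes 4 fell and none rose, namely ORC2 of the origin recognition complex (-0.69), the sliding clamp genes PCNA1 (-0.47) and PCNA2 (-0.35) and the ribonucleotide reductase gene TSO2 (-0.31), with a list median of -0.31, and 7 were called lower without BL+Kyn 48 h replicate 2. The 30.8% of DNA replication genes called was near the 27.7% of all tested genes, of which 13.4% were called lower. PCNA1 had 1424 to 1808 in BL+Kyn against 2145 to 2381 in BL. The call of PCNA2 ended under 6 omissions of a library (adjusted p up to 0.0585). Among 11 CDK inhibitors and endocycle genes LGO (-0.89), KRP3 (-0.81) and FZR2 (-0.32) fell and KRP6 (0.49) and KRP5 (0.44) rose, the call of KRP6 ending under 1 omission (adjusted p = 0.0561).

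Brassinosteroid lists had small medians, and 3 genes were called in each. Of 12 genes of synthesis and inactivation 3 rose and none fell, with a median of -0.01. The 25% called was near the 27.7% of all tested genes. DWF4, the C-22 hydroxylase that brassinosteroids repress (chromosome 3, 18814140 to 18817244), had 78.5 and 57.7 in BL+Kyn at 12 h, 56.7 and 75.1 at 24 h and 95.0 and 56.9 at 48 h. In BL it had 48.5 and 29.3, 35.7 and 57.5, and 44.4 and 35.8, and it rose 1.66-fold (log2 0.73, SE 0.17, adjusted p = 0.00319). The C-23 hydroxylase genes CYP90D1 (1.24) and ROT3 (0.58) rose too. CPD, another cytochrome P450 of the pathway, was at 265 to 554 in BL+Kyn and 354 to 577 in BL, a log2 difference of -0.04 (SE 0.11, adjusted p = 0.837). Of 8 signalling genes BIN2 (0.41), BSK1 (0.27) and the co-receptor BAK1 (0.21) rose, while the receptor BRI1 (0.15), BZR1 (0.01) and BES1 (-0.03) were not called. In this list 37.5% were called, against 27.7% of all tested genes, and the median was 0.08. With only 24 and 48 h the call of BSK1 ended (adjusted p = 0.0685). The call of BAK1 ended under 5 omissions, that of BL 12 h replicate 2 among them (adjusted p up to 0.0758).

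Wall-modifying genes outside root hairs went both ways. Of 14 tested alpha-expansins, which loosen walls, 4 rose and 1 fell, and of 17 XTH genes, which cut and rejoin xyloglucan, 5 rose and 4 fell. EXPA8 (chromosome 2, 16948863 to 16950557) had 234 and 263 in BL+Kyn at 12 h, 388 and 262 at 24 h and 533 and 343 at 48 h, against 80.7 and 78.2, 99.5 and 91.2, and 81.2 and 90.5 in BL. It rose 3.70-fold (log2 1.89, SE 0.19, adjusted p = 8.84e-07) with no overlap. EXPA17 (1.21), EXPA1 (0.69) and EXPA9 (0.22) rose and EXPA15 (-0.83) fell. The rising XTH genes were XTH22, also known as TCH4 (2.01), XTH23 (1.93), XTH24 (1.86), XTH18 (0.41) and XTH27 (0.20), and without BL 12 h replicate 2 the list had 3 called higher. XTH33 had 2.25 to 6.93 in BL+Kyn against 30.4 to 66.0 in BL (log2 -3.10, SE 0.41, adjusted p = 2.57e-05), and XTH5 (-0.74), XTH16 (-0.54) and XTH9 (-0.52) fell less. Without BL+Kyn 48 h replicate 2, 7 XTH genes were called lower. Of the 2 routes to UDP-glucuronate, a precursor of wall sugars, the inositol oxygenase genes MIOX4 (1.36) and MIOX2 (0.45) rose, and the dehydrogenase genes UGD3 (-0.30) and UGD2 (-0.24) fell. The call of UGD2 ended under 4 omissions of a library (adjusted p up to 0.0697), and that of MIOX2 when 12 h was left out (0.0936).

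Barrier and water channel genes rose. Of 9 Casparian strip genes 8 rose and none fell, with a median of 0.58 and a range of 0.40 to 0.72. The Casparian strip is the lignin ring of the endodermis, built at domains marked by CASP proteins under the factor MYB36. CASP1 (chromosome 2, 15159591 to 15160750) had 6164 and 7353 in BL+Kyn at 12 h, 6949 and 7103 at 24 h and 7761 and 4535 at 48 h, against 5350.2 and 4192, 4355 and 4247, and 4022 and 4450.4 in BL. It rose 1.48-fold (log2 0.57, SE 0.11, adjusted p = 0.000719). MYB36 (0.56), the dirigent protein gene ESB1 (0.58), the peroxidase gene PER64 (0.58), CASP4 (0.72) and the receptor gene SGN3 (0.40) were among those that rose, and CASP5 (0.68) was not called. In BL+Kyn 48 h replicate 2 the list median was only 0.14 above the BL mean, against 0.43 to 0.88 in the other 5 BL+Kyn libraries.

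Suberin genes, which coat older endodermal cells with a lipid polymer, showed 5 of 9 higher and none lower, with a median of 0.83. GPAT7 (2.08), GPAT5 (1.03), ASFT (0.88), KCS2 (0.83) and CYP86B1 (0.77) rose. GPAT5 had 15.2 and 15.4 in BL+Kyn at 12 h, 131 and 128 at 24 h and 187 and 394 at 48 h, against 19.1 and 17.1, 18.9 and 65.0, and 132 and 69.7 in BL. No suberin gene was called at 12 h, where the list median was -0.03, while 5 were called higher at 24 h and 3 at 48 h. With only 24 and 48 h in the fit 8 of 9 rose, and none of the 9 was called for a change with time.

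Of 17 aquaporins of the plasma membrane (PIP) and tonoplast (TIP), 14 rose and 2 fell, with a median of 0.68. TIP2;3 (1.86), TIP2;2 (1.26), PIP1;1 (1.22), PIP2;3 (1.13), PIP2;5 (1.01) and PIP2;2 (0.98) led. TIP2;2 had 12107 and 16059, 19672 and 21339, and 45835 and 21312 in BL+Kyn at the 3 times, against 8568 and 7981, 8088 and 10551, and 7330.0 and 9836 in BL, with no overlap. PIP2;2 and PIP2;3 are near copies, so their reads may be shared. PIP2;6 (-0.78) and TIP2;1 (-0.37) fell, and PIP2;8 (-0.20) was not called. Without any of 6 libraries, BL 12 h replicate 2 among them, 1 was called lower. At 48 h the list median was 1.06 above the BL mean in BL+Kyn replicate 1 and 0.24 in replicate 2.

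**Figure D4:**
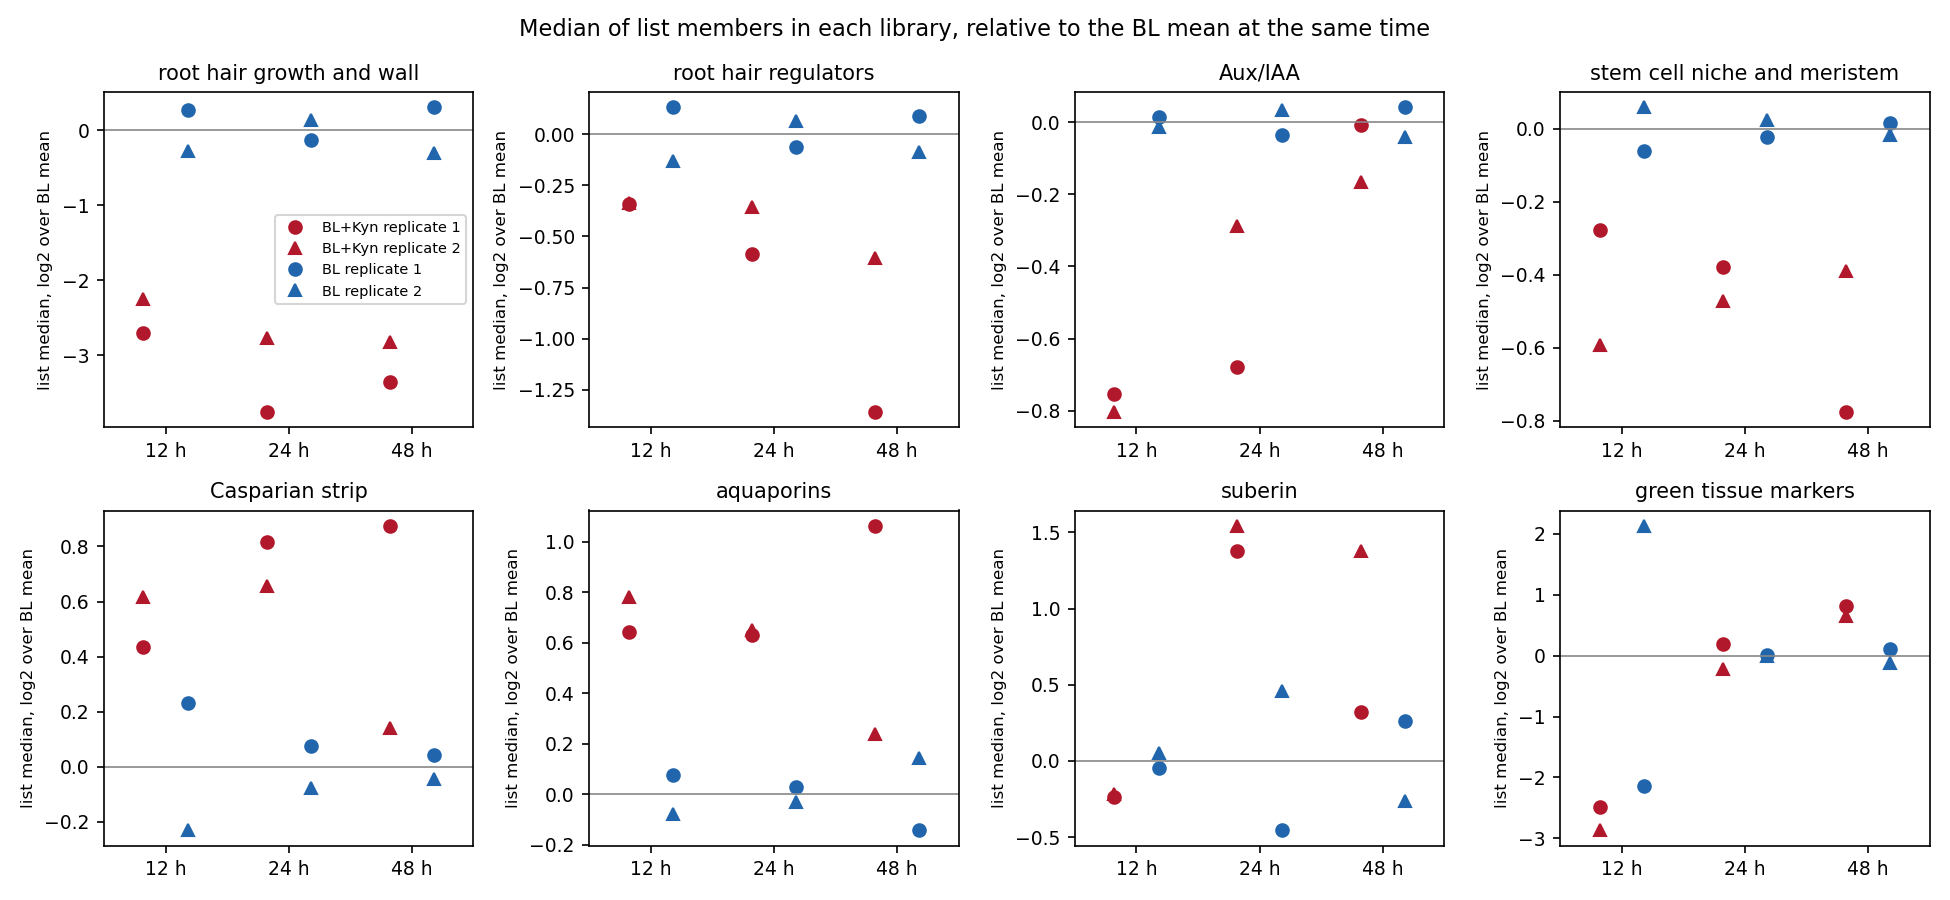
Each point is the median over a list's members in 1 library, as a log2 difference from the BL mean at the same time, with BL+Kyn in red to the left of BL in blue, circles for replicate 1 and triangles for replicate 2. Root hair genes lie 2.25 to 3.75 below BL in all 6 BL+Kyn libraries, Aux/IAA medians are nearest to BL at 48 h, and the green tissue panel shows BL 12 h replicate 2 standing apart.

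Vascular genes changed in few members. The xylem list had 20% called, against 27.7% of all tested genes. In xylem the proteases XCP1 (0.42) and XCP2 (0.29) rose and none of 10 fell, although the call of XCP2 ended under 6 omissions, that of BL 12 h replicate 2 among them (adjusted p up to 0.0821). None of 9 phloem genes was called (median 0.24). Of the 5 HD-ZIP III factors, which pattern the vascular cylinder, REV (0.75) and ATHB15 (0.25) rose, and the call of ATHB15 ended under 9 of 12 omissions of a library (adjusted p up to 0.153). None of 7 flavonoid genes was called. In the root cap BRN1 (0.31) was the only called gene of 4, and its call ended under 10 of 12 omissions (adjusted p up to 0.173).

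Among hormone and stress lists, several had fewer called genes without BL 12 h replicate 2. Ethylene genes had 8 of 16 higher and 1 lower, among them ACS5 (0.95), an enzyme of synthesis, and the receptors ETR2 (0.68) and ERS2 (0.42). EIN2, the central transducer, fell by 0.35. ACS5 had 112 to 136 in BL+Kyn against 46.4 to 83.8 in BL. Without BL 12 h replicate 2, 5 ethylene genes were called higher, and with only 24 and 48 h 4 were, ETR2 not among them (adjusted p = 0.0575). Gibberellin genes had 5 of 11 higher and 1 lower, with the inactivating oxidases GA2OX2 (2.85) and GA2OX6 (0.80), the receptors GID1B (0.95), GID1A (0.55) and GID1C (0.52), and the DELLA repressor GAI at -0.31, and without that library 3 were called higher and none lower. GA2OX2 had 14.5 to 27.0 in BL+Kyn against 0 to 7.61 in BL.

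In cytokinin response, 2 of 8 type-A ARR genes fell, ARR4 (-0.40) and ARR3 (-0.35), and ARR8 (0.22) rose. The call of ARR3 ended under 6 omissions (adjusted p up to 0.0955) and that of ARR8 under 4 (up to 0.0972). Jasmonate genes had 3 of 12 higher, the lipoxygenase LOX4 (2.13), the repressor JAZ1 (0.41) and AOS (0.35), and none lower, and the call of AOS ended under 4 omissions of a library (adjusted p up to 0.0793). That of LOX4 ended with only 24 and 48 h (adjusted p = 0.051). The 25% of jasmonate genes called was near the 27.7% of all tested genes. In the salicylate and immunity list 4 of 10 rose, FMO1, the calmodulin-binding factor CBP60G (2.09), SARD4 (0.57) and ICS1 (0.53), and WRKY70 fell (log2 -1.3), while 2 were called higher without BL 12 h replicate 2. The call of ICS1 ended under 7 omissions (adjusted p up to 0.135). FMO1 had 12.4 and 3.85 in BL+Kyn at 12 h, 30.9 and 55.3 at 24 h and 154 and 205 at 48 h, against 2.73 and 0, 6.49 and 8.74, and 15.2 and 3.77 in BL. In the iron deficiency list FIT, the main regulator (0.83), the coumarin enzyme F6'H1 (0.38), AHA2 (0.26) and PDR9 (0.22) rose, but FIT alone was called without BL 12 h replicate 2. FIT had 4760.4 to 8268 in BL+Kyn against 1972 to 4026 in BL.

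Whether the effect of Kyn differed between roots with and without BL was tested by an interaction term, the difference of BL+Kyn minus BL less that of Kyn minus mock. It was called for 755 genes (3.98%), 315 (1.66%) with a higher and 440 (2.32%) with a lower value under BL. Kyn against mock called 929 genes (4.9%), 338 (1.78%) higher and 591 (3.12%) lower. Of the 338, 281 (83.1%) were also higher in BL+Kyn against BL, where they made up 10.4% of the 2711. Of the 591, 427 (72.3%) were also lower there, 16.8% of the 2536. Opposite directions were found for 8 genes higher in BL+Kyn against BL but lower in Kyn against mock, and for 3 the other way. Kyn 12 h replicate 2 also held green tissue transcripts, with 64811 normalized counts of RBCS1A, the Rubisco small subunit, against 772 to 1957 in the other Kyn libraries and 1409 to 3689 in mock. The 755 depended on single libraries, with 235 called without BL 12 h replicate 2, 91 without that library and Kyn 12 h replicate 2 together, and 3087 without BL+Kyn 48 h replicate 2.

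For 22 of 24 tested Aux/IAA genes and for the other early auxin genes, no difference between the effects with and without BL was called. IAA19 fell by 2.38 with BL and by 2.13 without, an interaction of -0.25 (SE 0.25, adjusted p = 0.606), and GH3.5 had log2 values of -1.87 with BL and -2.06 without (interaction 0.19, SE 0.19, adjusted p = 0.599). None of the 11 other early auxin genes had a called interaction, and of the Aux/IAA genes IAA28 (0.42) and IAA17 did. For YUC8 the rise was 1.59 with BL and 1.38 without (interaction 0.22, SE 0.14, adjusted p = 0.388). Such values do not show that the effects were equal.

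Some root hair genes fell further with BL. Of 15 growth and wall genes, 12 fell in Kyn against mock, with a median of -1.66 against -2.92 in BL+Kyn against BL, and 7 had a called interaction, all lower with BL. EXPA7 fell by 2.59 with BL and by 0.96 without (interaction -1.62, SE 0.25, adjusted p = 0.00448), and MRH6 was at -2.92 with BL and -1.52 without (interaction -1.40, SE 0.21, adjusted p = 0.00316). RSL2 and LRL3 had interactions of -1.56 and -1.3, and RSL2 was at 0.05 in Kyn against mock (adjusted p = 0.954). FLA6 (interaction -0.28, adjusted p = 0.63) and XTH26 (-0.58, adjusted p = 0.366), which fell by more than 3.5 without BL as well, had no called interaction. Interactions of EXPA18, MRH6, LRL3, RSL2 and XTH14 were called whichever of the 24 libraries was left out, and that of PRP3 was not called without 18 of them (adjusted p up to 0.0751).

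PLT2 and PLT1 were lower in BL+Kyn than in BL but not in Kyn than in mock, where their log2 values were -0.04 and 0.22. The interaction was -1.11 for PLT2 (SE 0.22, adjusted p = 0.0146) and -0.91 for PLT1 (SE 0.25, adjusted p = 0.0499). For PLT2 it was called without any single library but not without BL 12 h replicate 2 and Kyn 12 h replicate 2 together (adjusted p = 0.0702), and for PLT1 it was lost without 21 of the 24 libraries. PCNA1 had an interaction of -0.46 (adjusted p = 0.0226), which was lost without 5 libraries.

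The smallest adjusted p for the interaction among named genes, 0.00316, was shared by MRH6, LRL3, XTH24 (1.28), the methylesterase-like MES15 (-1.41), CCP3 (-1.62), the peroxidase gene PRXCB (1.07) and the cytochrome P450 gene CYP705A5 (1.22). CCP3 had 114 and 113, 34.3 and 36.9, and 37.8 and 47.1 in BL+Kyn against 779 and 497, 478 and 672, and 630.4 and 411 in BL. PRXCB had 2409 to 6258 in BL+Kyn against 1041 to 1834 in BL, with means of 1249 in Kyn and 1128 in mock. CYP705A5, EXPA1 and XCP2 rose in BL+Kyn against BL and fell in Kyn against mock, with interactions of 1.22, 1.27 and 0.64. EXPA8 (1.55), ACS5 (1.35) and CYP83B1 (0.68) rose with BL and were not called without it. CYP78A5 rose in both, by 3.87 with BL and 5.21 without, and its interaction was -1.34 (adjusted p = 0.0242).

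**Figure D5:**
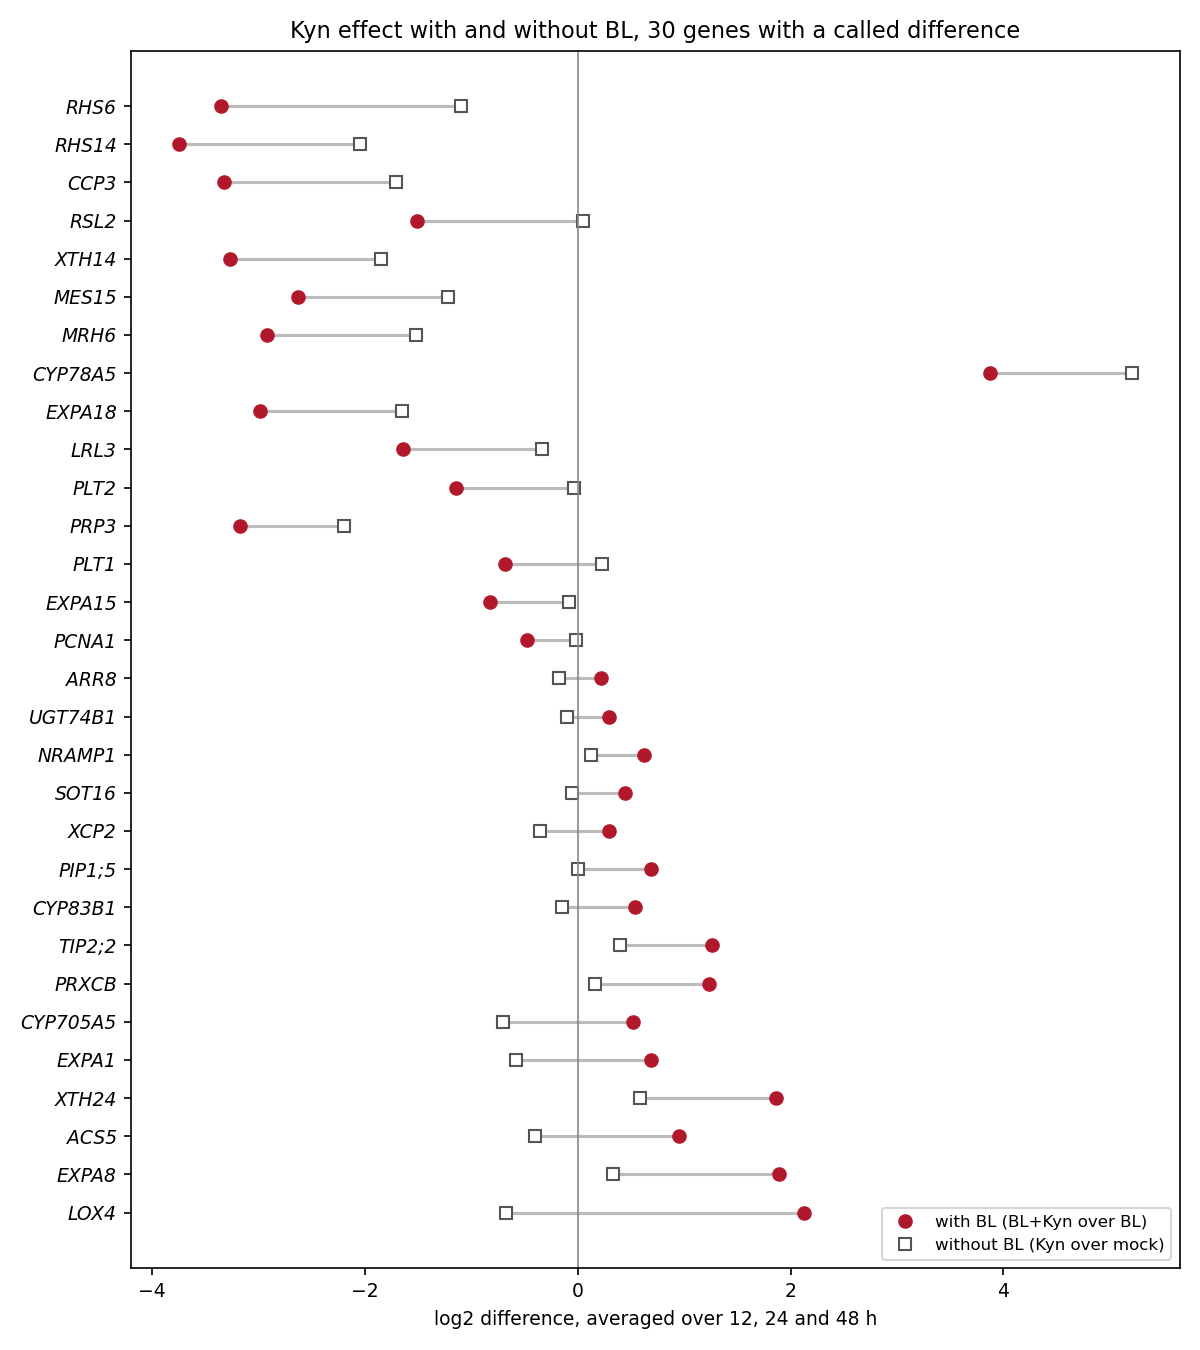
For 30 named genes with a called interaction, the red circle is the log2 difference between BL+Kyn and BL and the open square that between Kyn and mock, joined by a grey line. RHS6, RHS14, XTH14, MRH6, EXPA18, LRL3 and PRP3 have both symbols left of 0 and the circle farther left, and LOX4, ACS5, EXPA1, CYP705A5 and XCP2 are among those with symbols on opposite sides of 0.

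At single times, with 2 libraries against 2, 615 genes (3.25%) were called at 12 h, 282 (1.49%) higher and 333 (1.76%) lower, 1165 (6.15%) at 24 h, 627 (3.31%) higher and 538 (2.84%) lower, and 3205 (16.9%) at 48 h, 1584 (8.36%) higher and 1621 (8.55%) lower. At all 3 times 119 genes were called higher and 209 lower. The count at 12 h was 251 without BL 12 h replicate 2, 49 higher and 202 lower, and that at 48 h was 967 without BL+Kyn 48 h replicate 1 and 5205 without replicate 2. A difference in these counts is not a test of time. The test of time, whether the difference between BL+Kyn and BL was the same at 12, 24 and 48 h, called 5 genes by limma (0.0264%), with 1632 at an unadjusted p under 0.05, and 2 by edgeR.

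The 3 named among them were the metal transporter gene NRAMP1, the defensin-like LCR69 and the ABC transporter gene ABCG2. LCR69 had 2607 and 2699 in BL+Kyn at 12 h, 4720.3 and 5833 at 24 h and 8235 and 7873 at 48 h, against 4495 and 5183, 4328 and 5144, and 4372 and 5233 in BL. It thus lay below BL at 12 h and above it at 48 h (adjusted p for change with time 0.0428). ABCG2, a transporter of suberin precursors, had 4.82 and 8.97, 45.5 and 58.1, and 119 and 315 in BL+Kyn against 54.5 and 47.7, 50.9 and 58.7, and 97.7 and 67.9 in BL (0.0428). NRAMP1 had 554 and 654, 527 and 523, and 1356 and 1040.1 in BL+Kyn against 478 and 482, 527 and 462, and 429 and 437 in BL (0.0397). No gene was called for a change with time without BL 12 h replicate 2, and 610 were without BL+Kyn 48 h replicate 2.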

How the data were processed

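Messenger RNA was measured with CEL-Seq2, a 3′-end method. Per the submitters' processing notes, TopHat2 2.1.0 was the aligner named and HTSeq 0.6.1 the counter, with TAIR10 as the build. DESeq2 1.18.1 is listed there too, beside cutadapt 1.10 under Trim Galore and FastQC 0.11.5. Collapsing of molecular barcodes and the strand counted are not given in the sources used here, so overlapping and antisense genes may share reads. The authors deposited normalized counts per library, a linear signal, used as deposited. Each library's values were whole multiples of a unit, giving whole reads (within 0.1) for 100% of values.

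The main fit was limma-trend (limma 3.58.1, R 4.3.3) on log2(normalized count + 1) with 12 treatment and time means over all 24 libraries (12 residual degrees of freedom), for 18948 genes with a mean of at least 5. Folds are on that scale and understate changes of low genes. Benjamini-Hochberg adjustment ran across every tested gene, with called meaning under 0.05. P-values measure the spread between libraries. Times were averaged with equal weight. edgeR 4.0.16 (5243 genes called) and DESeq2 1.42.0 on the recovered reads, TMM scaling, other pseudocounts and filters, a replicate block and each library left out were alternatives. Figures used Python with matplotlib.

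The gene lists (33 lists, 421 genes) and the members named were chosen with earlier results of these data known. The 132 named genes included the 10 strongest rises and 10 strongest falls (called, symbol known, mean 20 or more, sign shared by the 3 times). They also took in the best 4 called per list, 15 key genes and the 3 largest log2 changes per direction at single times. By smallest p, up to 6 each were added for change with time and interaction. Other list members are named for completeness, and some results are not reported here. Gene positions are those of the deposited tables (TAIR10). Upstream windows came from RefSeq (TAIR10.1), whose gene models overlap 99.97% of 27997 compared loci on the same chromosome but share start and end in 19.9%. Motifs were searched on both strands, and the root hair element was added after the data were seen. Replicate numbers were not treated as pairs. Scripts were tested on simulated data.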

Additional observations from a re-analysis of the deposited data

Results flagged for a closer look

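Of 35 groups of 6 libraries checked for a single library far from the rest, 3 had 1. Chance gives about 1 in 20, a rough guide only, since the 6 libraries of a group span 3 times. The green tissue genes summed to 101520 normalized counts in BL 12 h replicate 2, against 2751 to 5228 in the other 5 BL libraries. That excess was known before the check. The root hair regulator list had a median 1.36 below the BL mean (-1.36) in BL+Kyn 48 h replicate 1, against -0.61 to -0.34 in the other 5 BL+Kyn libraries. The root cap list had a median of 0.25 in BL+Kyn 24 h replicate 1, against -0.19 to -0.03 in the others, over 4 genes.

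The effect of Kyn differed with and without BL, by the interaction test, in 30 named genes, 15 with a lower and 15 with a higher value under BL. Some of them were named for their small p in this same test, so the count and its split describe the naming. Over all tested genes 3.98% were called, 440 with a lower and 315 with a higher value. The lower ones were RHS6 (-2.25), RHS14 (-1.70), CCP3 (-1.62), RSL2 (-1.56), XTH14 (-1.42), MES15 (-1.41), MRH6 (-1.40), CYP78A5 (-1.34), EXPA18 (-1.33), LRL3 (-1.3), PLT2 (-1.11), PRP3 (-0.98), PLT1 (-0.91), EXPA15 (-0.74) and PCNA1 (-0.46). The higher ones were LOX4 (2.81), EXPA8 (1.55), ACS5 (1.35), XTH24 (1.28), EXPA1 (1.27), CYP705A5 (1.22), PRXCB (1.07), TIP2;2 (0.86), CYP83B1 (0.68), PIP1;5 (0.68), XCP2 (0.64), SOT16 (0.50), NRAMP1 (0.50), ARR8 (0.40) and UGT74B1 (0.40). Of the 30, 19 were called whichever of the 24 libraries was left out, 24 without BL 12 h replicate 2 and 16 without that library and Kyn 12 h replicate 2 together. LOX4, with at most 12.8 normalized counts in BL+Kyn and 8.88 in BL, was not called by edgeR (adjusted p = 0.0999). The effect in BL changed with time for NRAMP1 (adjusted p = 0.0397), LCR69 (0.0428) and ABCG2 (0.0428).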

How the results depend on the processing

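The 5247 genes called in BL+Kyn against BL numbered 4005 to 6613 with each library left out, 5243 by edgeR, 5154 by DESeq2, 5210 with TMM scaling and 3794 with only the 12 BL and BL+Kyn libraries. With each library left out in turn, the counts ran from 198 to 1192 at 12 h, 386 to 2063 at 24 h and 967 to 5205 at 48 h, 0 to 610 for the change with time and 151 to 3087 for the interaction. The interaction gave 91 without BL 12 h replicate 2 and Kyn 12 h replicate 2 together, and the change with time gave 2 by edgeR. The labels do not say that replicate numbers pair samples. Deviations from the group mean correlated between same-numbered libraries by -0.121 to 0.11 over the 15 pairs of BL and BL+Kyn groups. Of these 12 libraries, 6 correlated best, among all other groups of the series, with a library of their own number. Over all 66 pairs of groups 9 were over 0.1, up to 0.53, and 18 of 24 libraries correlated best with their own number. The 2 libraries of a group deviate by mirror-image amounts and always give the same outcome. These counts thus hold each group's outcome for both its libraries, and are a hint from the data and not the design. With the replicate block, 5423 genes were called in BL+Kyn against BL, 945 for the interaction and 17 for the change with time. Of the 132 named genes 127 were called, and 18 of these calls ended without at least 1 library (adjusted p up to 0.173), 12 of them without BL 12 h replicate 2. They were ABCB1, AHA2, AOS, ARR3, ARR8, ATHB15, BAK1, BRN1, CYCB1;1, F6'H1, GID1A, ICS1, IGPS, KRP6, PCNA2, PDR9, UGD2 and XCP2. With only 24 and 48 h 15 calls ended, those of ATHB15, AUR2, BRN1, BSK1, ETR2, GH3.3, ICS1, IGPS, KNOLLE, LOX4, MIOX2, PDR9, PLA2A, UGD2 and XCP2 (adjusted p of 0.0509 to 0.778). With each BL or BL+Kyn library left out, the members called lower ran from 2 to 7 for G2 and mitosis, 3 to 7 for DNA replication and 4 to 7 for XTH genes, and those called higher from 3 to 6 for XTH genes, 5 to 9 for ethylene, 3 to 5 for gibberellin, 2 to 4 for salicylate and 1 to 4 for iron. No named gene changed direction while called under any alternative run. Depth limits genes of few counts, such as GPAT7, GA2OX2 and LOX4, which held 0 to 27.0 normalized counts in the BL+Kyn and BL libraries.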

Other observations

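Families formed from RefSeq product names after the data were seen gave counts that the lists above do not cover. Of 272 tested ribosomal protein genes with no organelle in their name, 191 were lower in BL+Kyn than in BL and 6 were higher, with a median of -0.35. None was called in Kyn against mock, where the median was 0.02. An interaction lower with BL was called for 79 of the 272, and for 2.32% of all tested genes. Interaction calls over all genes depended on single libraries, as given above, and those of this family were not counted without any library. The family median was -0.74 in BL+Kyn 48 h replicate 1 and -0.37 to -0.21 in the other 5 BL+Kyn libraries. All 15 tested genes named as root hair specific were lower in BL+Kyn (median -2.82), among them RHS14 and RHS6 named above, so they overlap with the root hair results. Of 19 tested genes with extensin product names 11 were lower and 3 higher, and their repeats make reads hard to assign. EXT11, named above, was not among those matched. Of 53 tested genes with peroxidase family product names 24 were higher and 9 lower, with a median of 0.44. In Kyn against mock 12 were higher and 5 lower. The name match was not exact, since it took in the dioxygenase gene DOX1 (-0.50, called lower) and missed PA2, named above.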
